A study of Rattus norvegicus with 12 samples.

Results

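Of 13324 genes expressed in both the spinal dorsal horn (SC) and the trigeminal nucleus caudalis (TNC) of 6 outbred rats, 68 were selected. They were selected for a wide range between animals in each region and a close correlation across animals between the regions. The animals were male Wistar Han rats aged 10 weeks, all untreated, and SC and TNC tissue was cut out under laser guidance from each animal, R101 to R106, for 12 poly(A) RNA libraries. The set was chosen from the measured values. It holds genes with a mean level of 1 CPM or more in each region (CPM is a gene's read count scaled to a common library total), a range over the 6 rats of 1 or more in each region on the log2(CPM + 0.5) scale, a Pearson correlation across the 6 rats between SC and TNC of 0.9 or more, and a mean log2 difference between the regions under 1 in size. A range of 1 on that scale is about a doubling, and less than the true fold where a gene is low. The ranges, correlations and rat-to-rat differences given here are therefore a description of the chosen genes, with no test. The 68 genes make up 0.51% of the 13324 genes that passed the level criterion, and the files list 32662 genes in all.

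Wistar Han rats are kept as an outbred stock, so animals of the same stock are not genetically identical. The dorsal horn and the TNC are counterpart sensory regions, which receive input on pain and temperature from the body and from the face. When both are sampled in one animal, each animal supplies a pair of libraries. What the variation of the 68 genes comes with beyond the animal itself was not tested, and in captured tissue fewer cells of a type and less RNA per cell cannot be told apart. The labels give a lane and an index sequence for each library and no cage, litter, time of death or dissection batch. The files name genes by Ensembl rat identifiers only and 0 of them could be paired with a symbol, so the identity, position, function and sequence of the genes were not analysed here, and neither were the cell types in the captured tissue. For the same reason 4 members are printed by identifier and the others are described by their place in the set.

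Depth was similar across the libraries, with 11223405 to 14591508 gene reads and 16449 to 17536 genes with at least 1 read. Of 16 sets of 6 library values examined, 2 had a library far from the others: the TNC library of R102 in its share of alignments outside genes and the SC library of R106 in its number of genes detected. Across the rats, 1 of the 68 members correlated with total reads at 0.8 or more in size and the same sign in both regions, which is 1.47% of members against 0.188% of the 13324 genes. For the number of genes detected and for the shares of alignments outside genes and to several places, the number of such members was 0, against 0.218%, 0.330% and 0.563% of the 13324 genes. At such background shares a count this low among 68 genes says little.

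The correlation criterion removed most of the variable genes. A range of 1 or more was found for 1758 of the 13324 genes in SC, for 2071 in TNC and for 994 in both, and 68 of these 994 genes (6.84%) reached a correlation of 0.9. The limit on the region difference removed 0 further genes. Among the 994 genes the median correlation between the regions was 0.26, 128 genes reached 0.8, and 348 genes had a correlation below 0. The correlations thus covered nearly the whole scale. Of the 994 genes, 67 lay from 0.7 to 0.8, 60 from 0.8 to 0.9 and 68 from 0.9 to 1, so the counts did not fall toward the upper end. Of the 13324 genes, 712, 531 and 278 lay in these spans, so there the counts fell. Whether the members form a separate peak or the upper end of a continuous distribution was not tested. The 3 members nearest the limit had correlations of 0.901, 0.902 and 0.902, and the 3 genes just outside, which met all other criteria, had 0.899, 0.896 and 0.894. At the range limit, the members had smaller ranges down to 1.02 and 1.04, and the nearest genes outside had 0.99, 0.99 and 0.94. A further 210 genes correlated at 0.9 or more with a range under 1 in at least 1 region.

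**Figure D1:**
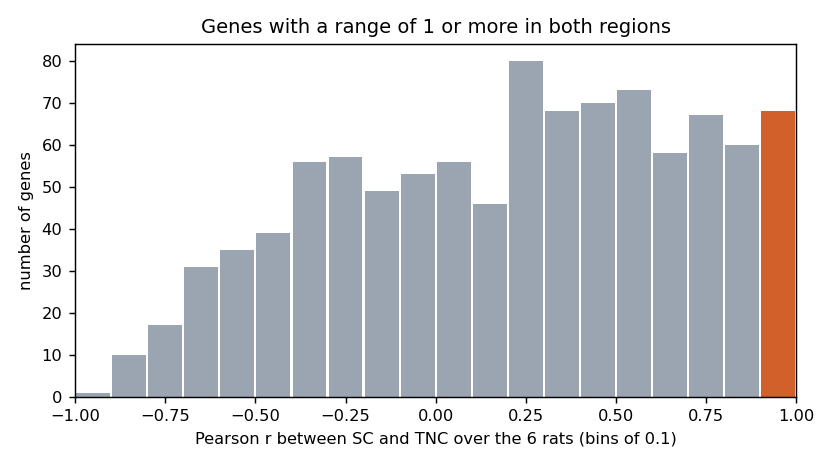
Pearson correlation between SC and TNC across the 6 rats for the 994 genes with a range of 1 or more in both regions, in bins of 0.1 with the number of genes on the vertical axis. The orange bin, from 0.9 to 1, holds the 68 members, and 60 genes lie in the bin next to it.

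Members were genes of low to moderate abundance. Their mean level had a median of 8.35 CPM in SC and 8.01 CPM in TNC, below the 25.5 and 24.7 CPM of all 13324 genes and above the 3.09 and 2.64 CPM of the 994 genes with wide ranges. By the mean of both regions, 39 members lay from 1 to 10 CPM, 26 from 10 to 100 CPM and the most abundant 3 above that. The whole set took 0.138% to 0.189% of the gene reads of a library. Their log2 range had a median of 1.94 in SC, from 1.02 to 5.87, and of 1.99 in TNC, from 1.04 to 5.82. In the region where it was smaller, the range was at least 2 in 27 members and at least 3 in 17, out of 55 and 19 genes of the 13324 with ranges of that size in both regions.

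No region of a rat was sequenced more than once, so the spread between the regions of a rat stands in for an error here. After each region's mean was removed, the rats' means of both regions had a median standard deviation of 0.74 on the log2 scale in the members. The standard deviation of single libraries between the regions of the same rat was 0.19. The first value also holds part of the spread within rats, so these are not like measures. For the 994 genes with wide ranges the same values were 0.41 and 0.46. The range and correlation criteria favour this contrast, so nothing is read from it. The same rat was highest in both regions for 44 of the 68 members and the same rat lowest for 49, against 22.6% and 21.8% of the 13324 genes. The correlation criterion favours these counts as well, so they are a description. For 30 members (44.1%) both ends of the order were held by the same rats in SC and TNC, against 5.85% of the 13324 genes, which the same criterion favours.

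**Figure D2:**
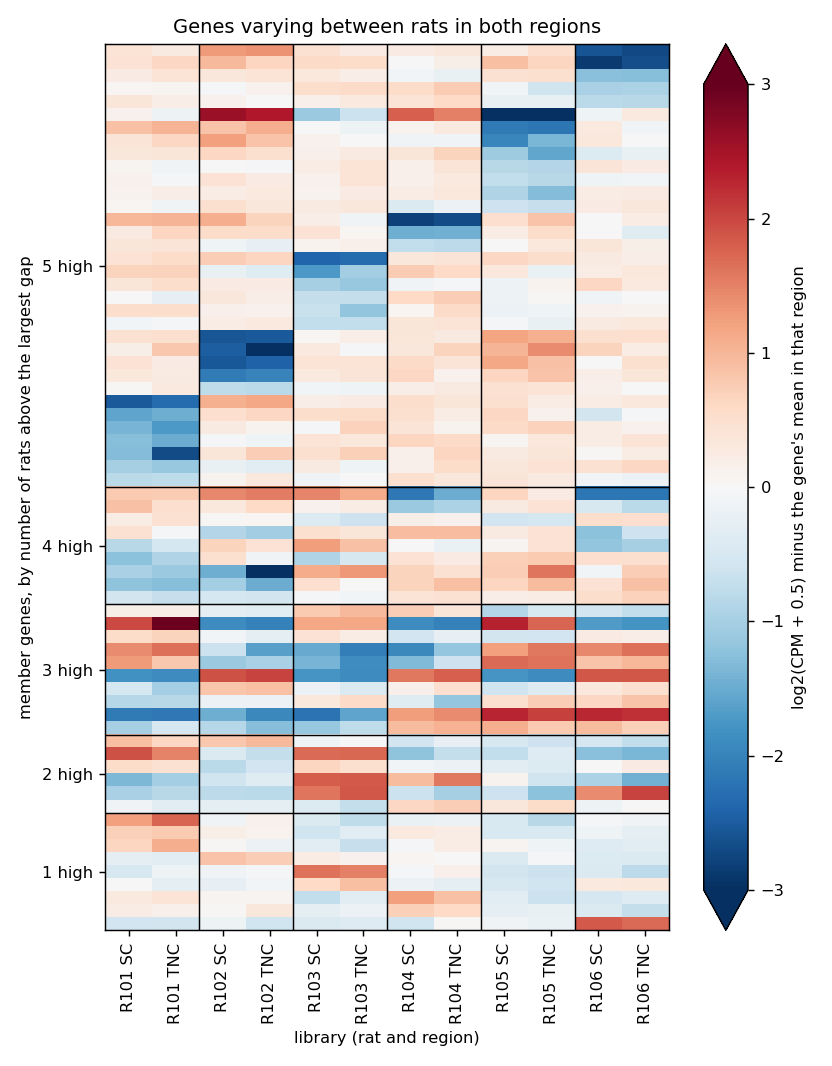
Each row is 1 of the 68 members and each column 1 library, with SC and TNC of a rat side by side. Colour is log2(CPM + 0.5) minus the gene's mean in that region, and rows are grouped by how many rats lie above the largest gap between neighbouring rats. The same colours recur in the paired columns of a rat, and the block of 34 members with 5 high rats has a single blue pair in most rows.

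ENSRNOG00000029386, the member with the widest range, had 0 reads in both libraries of R105 and was spread widely over the other rats. In SC it had 28.8 CPM in R102, 16.3 in R104, 4.75 in R101, 3.91 in R106, 1.73 in R103 and 0 in R105. In TNC it had 27.8 CPM in R102, 14.7 in R104, 6.08 in R106, 4.32 in R101, 2.94 in R103 and 0 in R105. The order of the rats was the same in both regions except that R101 and R106, the closest neighbours, changed places. With 0 reads in both libraries of R105, a level of up to 0.249 CPM in SC and 0.247 CPM in TNC is allowed (3 reads of the library). Against that limit the level of R102, from 360 and 330 reads, was at least 115-fold higher in SC and at least 112-fold higher in TNC. Without R105 the smaller of its ranges was 3.04 instead of 5.82. The largest gap between neighbouring rats lay above R105 and covered 0.422 of the gene's range (mean of both regions, log2 scale). That is under the share required for a step further on, and it depends on the value added before log2, since R105 was at 0.

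ENSRNOG00000019050 was present in 3 rats and near or at 0 in the other 3. In SC it had 6.76 CPM in R101, 3.63 in R103 and 8.64 in R105, and in TNC 14.98, 4.01 and 6.33 CPM in the same rats. R102 and R104 had 0 reads in both regions, and R106 had 1 read in each. The high and the low rats did not overlap in either region. Among the 3 high rats the order was not shared, since R105 was highest in SC and R101 in TNC. The highest rat was 36.0-fold above the limit of 3 reads for R102 in SC and 59.4-fold above it in TNC. These ratios also leave out the counting error of the highest rat.

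ENSRNOG00000061943 was high in R104, R105 and R106. Its SC levels were 6.95, 14.7 and 14.6 CPM in these rats and 0.223, 0.639 and 0.173 CPM in R101, R102 and R103. In TNC they were 6.30, 10.03 and 11.2 CPM and 0.0814, 0.168 and 0.356 CPM. The low rats had between 1 and 8 reads in a library and the high rats between 74 and 213, so both sets of rats were far apart in each region. The ratio of the highest rat to the lowest was 85.0 in SC, with an exact counting interval from 23.2 to 707, and 137 in TNC, with an interval from 24.2 to 5454. These intervals and the limits at 0 reads cover counting error only.

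ENSRNOG00000059957 had the highest correlation of the 4, with r rounding to 0.999, and a level that differed little within each set of rats. In SC the high rats R102, R104 and R106 had 8.15, 6.31 and 7.81 CPM, and in TNC they had 8.24, 6.98 and 7.33 CPM. R101, R103 and R105 had 2 reads each in SC and 1 read each in TNC. The gap between both sets covered 0.916 of the gene's range (mean of both regions, log2 scale). The 95% counting intervals of the 3 high rats overlapped in each region, while their order, R102, R106 and R104, was the same in both, and the difference among them was not tested. The highest rat was 54.9-fold above the lowest in SC (interval 14.8 to 459) and 101.2-fold in TNC (interval 17.7 to 4039).

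**Figure D3:**
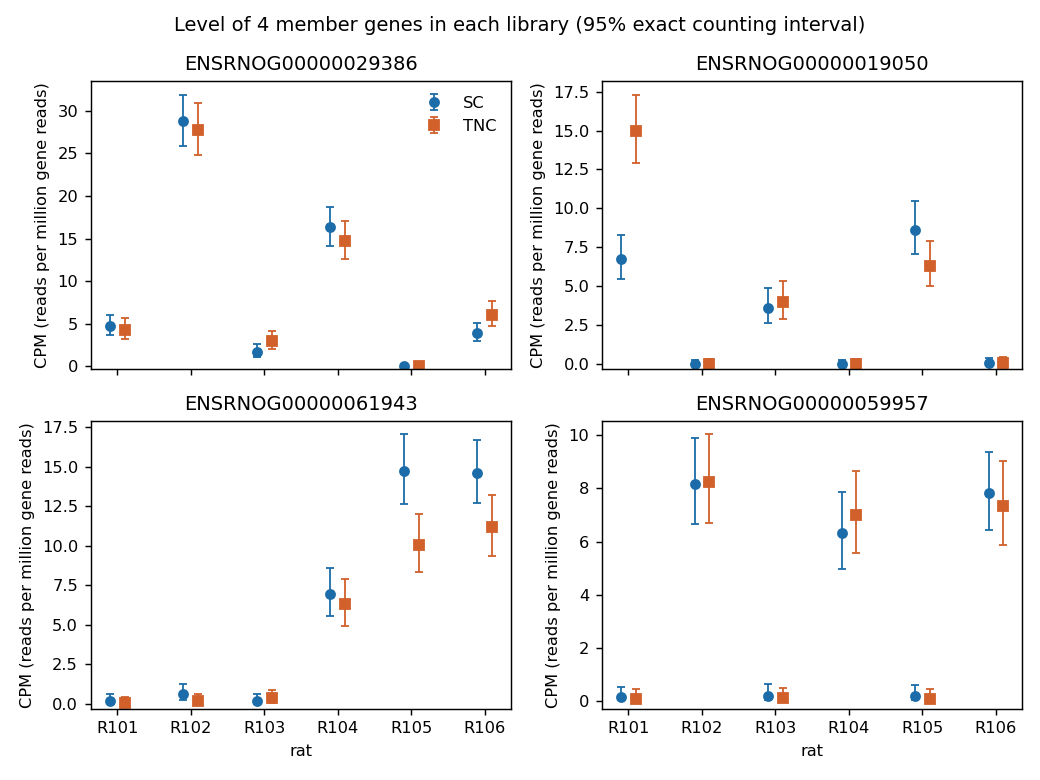
Level in CPM (vertical axis) of the 4 members printed by identifier in each rat (horizontal axis), with SC as blue circles, TNC as orange squares and 95% exact (Clopper-Pearson) counting intervals as bars. ENSRNOG00000059957 alternates between about 0 and 6.31 to 8.24 CPM from rat to rat, while ENSRNOG00000029386 takes intermediate levels.

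Presence in some rats and near absence in others was seen in 10 members, including these 4. The criterion was at most 3 reads in both libraries of at least 1 rat and at least 30 reads in both libraries of another. Of the 13324 genes, 11 (0.0826%) met it, and the 1 gene that was not a member had a correlation of 0.75 between the regions. This criterion asks for a wide difference shared by both regions, as the rule does, so nothing is read from the overlap. In 3 of the members a rat had 0 reads in both regions.

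Many members had a step in level between sets of rats, and how many depends on the scale and on the gap required. To describe this, the 6 rat values of a gene (mean of both regions, log2 scale) were ordered and divided at the largest gap between neighbours. This gap covered at least 0.5 of the range in 47 of the 68 members, called stepped here, and in 28.1% of the 13324 genes. Among the 994 genes with wide ranges, 32.2% were stepped. A gap shared by both regions is favoured by the range and correlation criteria, so the shares of stepped members are a description. On the CPM scale 26 of the 68 were stepped (27.7% of the 13324 genes), and with a gap of at least 0.6 on the log2 scale 31 were (10.6%), so on these settings stepped members were the minority. In 45 of the 47 stepped members the same rats lay above the largest gap in SC and in TNC when the regions were taken alone. Over all members this held for 54 of 68, against 5.39% of the 13324 genes, a comparison that the correlation criterion favours.

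A single low rat was the most frequent arrangement. On the log2 scale 1 rat lay below the largest gap and 5 above it in 34 members, against 29.5% of the 13324 genes, and 28 of these members were stepped, against 9.76%. A single high rat was found in 9 members, against 25.2% of the 13324 genes, of which 5 were stepped (7.35% of the members, against 7.4% of the 13324 genes). Among the 994 genes with wide ranges, 13.5% were stepped with a single low rat and 6.24% with a single high rat. On the CPM scale, which widens gaps between high values, 26 members had a single low rat (23.8% of the 13324 genes did) and 17 a single high rat (30.9%). Of the members stepped on that scale, 11 had a single low rat (16.2% of the members, against 6.76% of the 13324 genes) and 8 a single high rat (11.8% against 10.3%). How far single low rats outnumber single high ones thus depends on the scale. A rat set apart in both regions is favoured by the range and correlation criteria, so the shares on both scales are a description. On the log2 scale the remaining 25 members had 2, 3 or 4 rats on the high side, with 14 stepped ones among them.

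Every rat was the single low animal for some members. R105 stood alone below the others in 8 members, R101 in 7, R103 in 6, R102 and R106 in 5 each and R104 in 3. As the single high animal, R101 occurred in 3 members, R103 and R104 in 2 each, R102 and R106 in 1 each and R105 in 0. The lowest value of a member fell to R105 in 15 members, to R101 in 14, to R106 in 13, to R102 and R103 in 11 each and to R104 in 4. The highest value fell to R102 in 17 members, to R104 in 12 and to each of the other rats in 9 or 10. No rat supplied the low or the high end of most members.

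**Figure D4:**
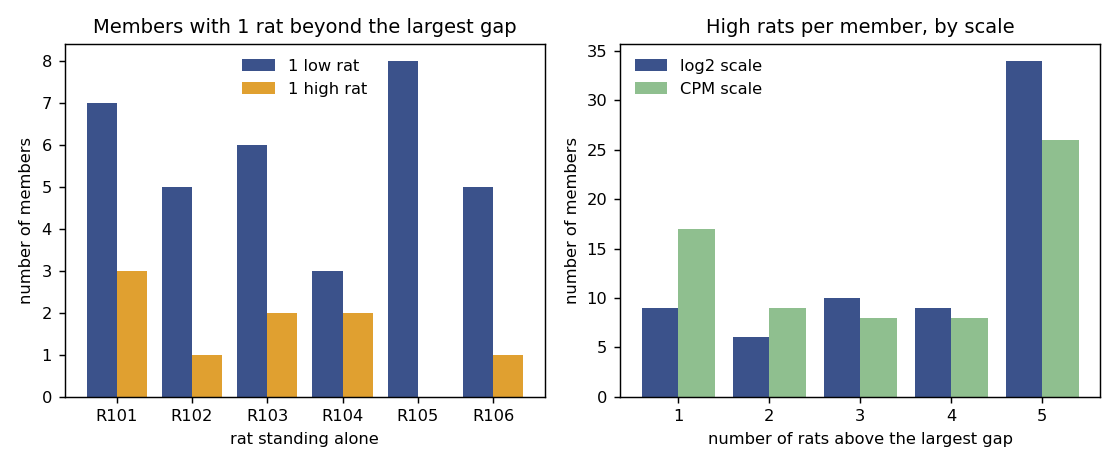
Left, number of members in which 1 rat lies alone below (blue) or above (yellow) the largest gap, by rat, on the log2 scale, from 3 to 8 members for the low side and from 0 to 3 for the high side. Right, number of members by how many rats lie above the largest gap, on the log2 and the CPM scale. Single low rats fall from 34 to 26 members and single high rats rise from 9 to 17 when the scale is changed.

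In the 28 stepped members with a single low rat, that rat's level had a median of 25.2% of the median of the other 5 rats in SC and of 22.1% in TNC. The percentages ranged from 0% to 56.1% in SC and from 0% to 51.0% in TNC, where 0% stands for 0 reads, which allow up to 3. The level was under 10% in both regions in 8 members, between 10% and 40% in both in 9, and between 40% and 60% in both in 5. The other 6 fell into different classes in SC and TNC. An example at moderate abundance, chosen after its values were seen, was a member with 2.59 CPM in SC of R103 and between 18.98 and 26.5 CPM in the other 5 rats. In TNC that gene had 3.83 CPM in R103 and between 23.99 and 32.9 CPM in the others, so the low rat reached 12.2% and 12.6% of the median of the rest.

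A partial reduction was seen in a further member, also chosen after its values were seen. There the 5 high rats lay between 41.4 and 44.96 CPM in SC and between 35.8 and 38.7 CPM in TNC, and R105 had 20.3 and 12.2 CPM. The high rats differed from each other by at most 1.09-fold in SC and 1.08-fold in TNC. The level of the low rat was 45.5% of their median in SC and 32.9% in TNC. Across the 47 stepped members the percentage differed between SC and TNC by a median of 4.86 points and by at most 24.9 points. The range and correlation criteria favour deep steps and like percentages in both regions. No background over other genes is given for the step percentages, so they are a description.

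In the 14 stepped members with 2 to 4 high rats the low side had a median of 8.87% of the high side in SC and of 10.4% in TNC. Of these 14, 5 were under 10% in both regions. The 5 stepped members with a single high rat had 35.9% and 26.3%, and 0 of them were under 10% in both. Rats on the same side were not equal: with 2 to 4 high rats, the highest of them was a median of 1.35-fold above the lowest of them in SC and 1.32-fold in TNC.

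**Figure D5:**
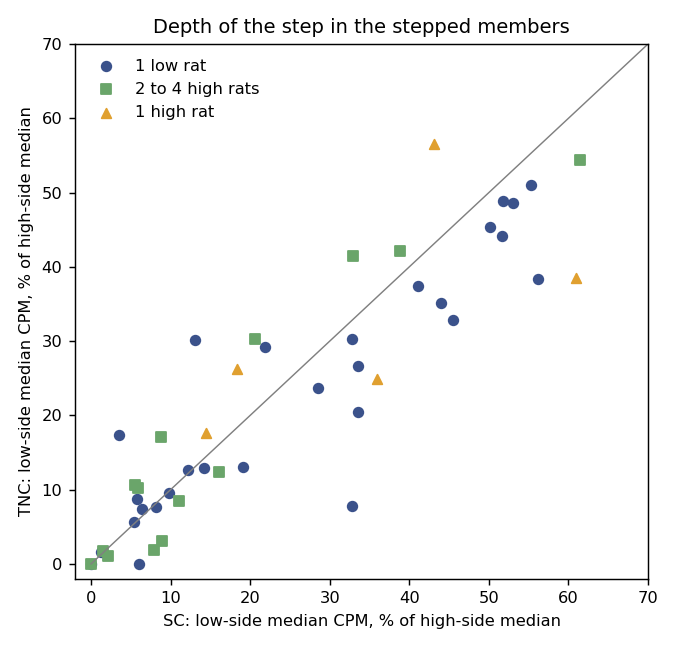
Median CPM of the rats below the step as a percentage of the median of the rats above it, in SC (horizontal axis) and TNC (vertical axis), for the 47 stepped members. The grey line marks equal percentages. Points run along the line from 0% to 61.5% in SC, and no member is above 60% in both regions. The range and correlation criteria favour both features.

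The 3 most abundant members showed smaller differences with more reads behind them. The most abundant was graded: its SC level was 299 CPM in R101, 303 in R102, 422 in R103, 507 in R105, 583 in R104 and 627 in R106. Its TNC level was 310 CPM in R101, 342 in R102, 475 in R103, 583 in R105, 687 in R104 and 807 in R106. The order of the 6 rats was identical in both regions, and between 3787 and 9693 reads stood behind each value. The next member in abundance had 129 CPM in SC and 105.8 CPM in TNC of R103. In the other 5 rats it had 200.4 to 275 CPM in SC and 149.9 to 233 CPM in TNC, so R103 stood apart in both regions.

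Few members divided R101 to R103 from R104 to R106, sets of rats chosen with earlier results of these data known. In 3 members all of R104 to R106 were above all of R101 to R103 in both regions (4.41% of members, against 0.743% of the 13324 genes), among them ENSRNOG00000061943 and the most abundant member. The opposite was found in 2 members (2.94%), against 0.368%. The range and correlation criteria favour any division of rats shared by both regions, so these shares are a description. The members used 29 different sets of high rats, 22 of them among the stepped members. Of the 2278 pairs of members, 26 had values correlated at 0.9 or more (12 values each, centred on the region means) and 12 at -0.9 or less, with a median of -0.02. All pairs share the same 12 libraries, and 40 members had at least 1 partner at 0.9 or more in size. No background over pairs of other genes is given here, so nothing is read from these counts.

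How far the correlation rests on 1 rat was described by leaving rats out. In 27 members it stayed at 0.9 or more with every rat left out in turn, and in 21 it fell below 0.8 without 1 of the rats. For the 33 stepped members with a single low or high rat, the correlation over the other 5 rats had a median of 0.73, from -0.21 to 0.98, and was 0.9 or more in 8. For the 14 stepped members with 2 to 4 high rats the lowest correlation over 5 rats had a median of 0.94, from 0.86 to 0.999. For the members that were not stepped this median was 0.88, from 0.72 to 0.99. In the single-rat members the rat left out was the one set apart, so these are not like measures. With 2 to 4 high rats, both sides of the step remain when 1 rat is left out. The contrast thus follows from how the classes were made, and nothing is read from it. The rank correlation (Spearman's rho) over all 6 rats had a median of 0.83 among the members, below the median Pearson r of 0.95.

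A model over all genes gives the background of such differences. In edgeR's quasi-likelihood test of the 5 rat terms together, with region as a covariate, 195 of 13833 genes (1.41%) differed between the rats at a Benjamini-Hochberg adjusted p under 0.05. The members' rule used the same contrast, so their count, 54 of 66 members tested, is a description. The filter on low counts removed 2 of the 68, and the 12 tested members that were not called had mean SC levels of 1.39 to 10.5 CPM and smaller ranges of 1.02 to 1.97. Of the 141 called genes outside the set, 37 met the range criterion with a correlation under 0.9, 2 were below the level criterion, and the rest had a range under 1 in at least 1 region. The test treats both regions of a rat as its replicates and speaks of these 6 rats only. DESeq2's likelihood ratio test called 476 genes, 60 of the members among them.

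Differences between the regions were small in the members, as the rule required. The mean TNC minus SC difference had a median of -0.05 on the log2 scale, from -0.94 to 0.91, and 41 members were higher in SC (60.3%, against 55.0% of the 13324 genes) and 27 in TNC. With the rat as a block, edgeR called 14 of the 66 tested members (9 with more in TNC and 5 with more in SC), against 30.3% of the 13833 genes, 15.0% with more in TNC and 15.3% with more in SC. The size limit of the rule shaped this count. Without the block, 1 of the 66 members was called, while the count over all genes went from 4192 to 3627. A model without the block counts differences between rats as residual spread, and the members were chosen for such differences. Their lower count is therefore a description. Without R105, 9 members were called. For 17 of the 68 members, all 6 rats had the same sign of the regional difference, which was so for 26.9% of the 13324 genes.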

How the data were processed

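Per the labels' protocols, tissue was sectioned at 14 µm, captured by laser and sequenced after poly(A) selection. The deposited values are raw read counts per gene of 1 library. STAR and HTSeq are named in the submitters' processing notes, with versions, strand setting, genome build and annotation not given in the sources used here, so overlapping, antisense and near-identical genes cannot be told apart. The 5 summary lines of HTSeq entered neither library totals nor tests (outside genes: 12.5% to 15.7% of alignments). CPM used the library total, with 0.5 added before log2. Intervals are exact at 95%, with a limit of 3 reads at 0. Tests across genes used edgeR 4.0.16 (R 4.3.3, filterByExpr with minimum count 10, TMM scaling, glmQLFit and glmQLFTest, Benjamini-Hochberg adjustment), and DESeq2 1.42.0 as an alternative. The edgeR tests and the members' rule were tried on simulated data first, and DESeq2 was not.

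The 68 members, the lists and the measures were chosen with earlier results of these data known. Pairing comes from the rat: both regions of each animal were captured, and the rat number stands in the library titles. Over the 13324 genes, deviations from the region means correlated at 0.15 to 0.23 between the libraries of a rat and at 0.06 or less between rats, and all 12 libraries were closest to their own rat's other library. For printed identifiers, members were ranked by the smaller of both ranges, and the first 2 with more high rats among R101 to R103 and the first 2 with more among R104 to R106 were taken. The gene lists, marker lists, positions and sequences were not used here, since 0 identifiers matched the RefSeq table (assembly GRCr8).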

Additional observations from a re-analysis of the deposited data

Results flagged for a closer look

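Among 16 sets of 6 library values (total reads, genes detected, alignments outside genes, the members' share of reads and the 4 printed genes, each in both regions), 2 held a library far from the rest. About 5% of sets do so by chance. Alignments outside genes were 15.2% in TNC of R102 and 12.5% to 13.1% in TNC of the other rats. In SC of R106, 17536 genes were detected, against 17262 to 17364 in SC of the other rats. In neither set was a member's value involved. Over the 136 sets of member values, the same distance was exceeded by the lowest library in 32 and by the highest in 5, which the choice of the members favours.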

How the results depend on the processing

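The number of members depends on its limits: 40 with a mean CPM of 5 or more, 43 with a range of 1.5 or more, 125 with a correlation of 0.8 or more, 34 with 0.95 or more, and 34 with Spearman's rho of 0.9 or more, of which 22 are members. Scaling, the pseudocount and no minimum level gave 55 to 91. With each rat left out, 69 to 76 genes met the rule, 52 to 56 of them members, and 13 members were kept in all 6 such sets. DESeq2 called 476 genes between rats, against 195 with edgeR, and leaving out a rat gave 140 to 187. The cause of the difference was not tested. Between regions, leaving out a rat gave 3406 to 3995 genes. Without the replicate block 3627 genes and 1 member were called between regions. With a rat left out, 9 (without R105) to 13 members were called between regions and 43 to 47 between rats. A gap of at least 0.6 of the range left 31 stepped members, 3 of them with a single high rat. The CPM scale, chosen after seeing the data like the leave-outs of patterns and the read limits of presence, gave 26 stepped members, 11 with a single low and 8 with a single high rat. With a rat left out, 48 to 55 members were stepped, 26 to 32 with a single low and 6 (without R105) to 10 (without R102) with a single high rat, against 5 with all rats. In these sets 8 to 10 members were present in some rats and near 0 in others. With all rats, 11 members were so when presence took at least 20 reads and 7 when it took at least 50. With at most 5 reads as the low limit there were 12. The printed genes' smaller ranges moved with the pseudocount: for ENSRNOG00000029386, ENSRNOG00000019050, ENSRNOG00000061943 and ENSRNOG00000059957 these were 5.82, 4.19, 4.33 and 3.74 with 0.5, but 3.90, 2.41, 2.66 and 2.24 with 2, and 8.12, 6.45, 5.76 and 5.05 with 0.1. Position and gene lists were not run, for want of symbols. Counts under about 10 reads limit the low side of the steps.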
